A study of Mus musculus with 17 samples.

Results

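The genes described here are 10 members of the inflammatory cytokine and NF-κB feedback group in mouse macrophages: Tnf, Il1a, Il1b, Il6, Il18, Il10, Il1rn, Nfkbia, Tnfaip3 and Nlrp3. They were chosen by name, as the rows of those 10 genes among the 37620 genes of the deposited expression table. RNA of bone marrow-derived macrophages was sequenced in 17 libraries; the cells had been cultured in M-CSF, the growth factor that turns bone marrow cells into macrophages, at 50 ng/ml for 7 days. The question the design poses is which genes answer to transforming growth factor beta 1 (TGF-β1) during the transition of macrophages to myofibroblasts, and which of these answers need Smad3, which relays TGF-β receptor activity to target genes. The groups were wild-type cells with TGF-β1 (n = 4) and their controls (n = 5), and Smad3-knockout cells with TGF-β1 (n = 3) and their controls (n = 5). All were of strain C57BL/6J, and the stated treatment was TGF-β1 at 5 ng/ml for 5 days. That treatment text stands on the control samples too, so the groups rest on the sample titles. The sources do not say if a control culture was kept for the extra 5 days.

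Values are TPM, an abundance per transcript length, scaled to a common sum in each library. This unit holds no depth, which is therefore unknown here. Labels leave it unclear if each library came from 1 cell or from many, and they name neither animals nor cultures, so p-values speak only of how far libraries of a group scatter, and that scatter may be technical. If a library is many cells, fewer cells of a type and less RNA per cell cannot be told apart. The number of genes at TPM 1 or more was 7269 to 10307 per library, and 20 genes that every cell uses were never listed at 0. Of 8 macrophage markers none was at 0 in every library, and their summed level was 7699 to 43305 TPM, most of it Lyz2 at 4975 to 39900 TPM. Csf1r, the M-CSF receptor, was at 177 TPM or more and Cd68 at 1129 TPM or more in every library. Mertk, a receptor for dying cells, was low in many libraries of every group. It did not exceed 0.02 TPM in the wild-type TGF-β1 libraries. It reached TPM 1 in 2 of 5 wild-type controls, 2 of 3 knockout-labelled TGF-β1 libraries and 2 of 5 of their controls. Of the markers of other cell types, 7 of 8 for neutrophils, 6 of 7 for lymphocytes, 5 of 7 for fibroblasts, 4 of 5 for mast cells, 3 of 5 for erythroid cells and 2 of 6 for dendritic cells were at 0 in every library. The other neutrophil marker, S100a8, was listed at 0 in all TGF-β1 libraries. It reached 132 TPM in a wild-type and 34.6 TPM in a knockout-labelled control. Pdgfrb (fibroblasts) reached 9.72 TPM in a wild-type TGF-β1 library and 1.93 TPM in a knockout-labelled control. Kit (mast cells) reached 11.01 TPM in a knockout-labelled control. Itgax (dendritic cells) reached 18.43 to 19.13 TPM in every group but wild-type TGF-β1. Xcr1 (dendritic) and Hbb-bt (erythroid) were highest in knockout-labelled TGF-β1 libraries, at 5.2 and 4.64 TPM. Cd3d (lymphocytes) reached 1.97 TPM in a wild-type control. The rest stayed below TPM 1. The part of these markers in treatment differences was not tested. Smad3 did not separate the genotype labels: it reached TPM 1 in 3 of 8 libraries labelled knockout, with a highest value of 22.3 TPM, and in 2 of 9 wild-type libraries, with a highest value of 15.4 TPM. The knockout groups are therefore called by their label, and every direction between genotypes rests on that label.

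In macrophages, receptors for microbial products or for TNF and IL-1 free the transcription factor NF-κB from its inhibitor IκBα, the product of Nfkbia. NF-κB then switches on cytokine genes such as Tnf, Il1b and Il6, and also Nfkbia and Tnfaip3, whose products shut the pathway down again. IL-1β and IL-18 are made as inactive precursors, which caspase-1 cuts once a sensor such as NLRP3 has assembled an inflammasome, while IL-10 and the IL-1 receptor antagonist Il1rn restrain the response.

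The upstream sequences show where some of these genes carry the letters that NF-κB recognises. The 250 bases before the annotated transcription start were taken from RefSeq on build GRCm38.p6, and 9 of the 10 members matched, with 13 start sites in all. Il10 had no entry. Tnf is shown because its libraries stood apart between TGF-β1 and control in wild type; Nfkbia, Tnfaip3 and Il6 were chosen after their values were seen, to set feedback genes that were detected beside a cytokine gene that was listed at 0 throughout. Capitals mark the kappaB consensus in Nfkbia, Tnfaip3 and Il6. In Tnf they mark GTCTG, the reverse complement of the short Smad motif.
Tnf, chr17:35202008-35202257, minus strand: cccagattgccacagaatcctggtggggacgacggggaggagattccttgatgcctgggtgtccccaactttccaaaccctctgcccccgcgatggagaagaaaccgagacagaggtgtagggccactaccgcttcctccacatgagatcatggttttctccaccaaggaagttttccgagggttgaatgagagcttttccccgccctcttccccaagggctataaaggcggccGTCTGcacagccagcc
Nfkbia, chr12:55492648-55492897, minus strand: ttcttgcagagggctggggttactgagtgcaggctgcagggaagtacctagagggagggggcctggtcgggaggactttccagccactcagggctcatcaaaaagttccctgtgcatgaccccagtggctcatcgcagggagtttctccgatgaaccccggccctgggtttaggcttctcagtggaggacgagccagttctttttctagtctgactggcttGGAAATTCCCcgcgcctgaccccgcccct
Tnfaip3, chr10:19015411-19015660, minus strand: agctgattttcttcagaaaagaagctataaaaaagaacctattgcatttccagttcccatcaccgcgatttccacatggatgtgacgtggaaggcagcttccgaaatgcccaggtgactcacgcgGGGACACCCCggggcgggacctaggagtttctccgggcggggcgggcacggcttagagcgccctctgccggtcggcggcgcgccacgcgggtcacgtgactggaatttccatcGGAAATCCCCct
Il6, chr5:30012864-30013113, plus strand: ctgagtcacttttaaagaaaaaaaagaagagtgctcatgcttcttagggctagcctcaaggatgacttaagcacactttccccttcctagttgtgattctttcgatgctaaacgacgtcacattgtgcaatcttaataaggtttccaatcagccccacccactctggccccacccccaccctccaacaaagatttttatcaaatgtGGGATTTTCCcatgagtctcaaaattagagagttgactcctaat
Both strands were searched. The kappaB consensus was found at 4 of the 13 start sites, 1 each of Nfkbia, Tnfaip3, Il6 and Nlrp3, and in 7.25% of all 32851 promoters of the table, in which a gene can likewise have several. Its first base lay 29 bases upstream of the start in Nfkbia, 44 in Il6, 125 and 12 in Tnfaip3, and 186 in the second start site of Nlrp3. None of these 5 matches overlapped another motif. TGANTCA, the AP-1 site, was at 4 of 13 start sites and in 6.75% of all promoters. TGACG, the core of the cyclic AMP element, was at 2 of the 13 and in 17.8% of all promoters, while the full TGACGTCA, which holds that core, was at 0 of them and in 1.55% of all. CAGAC, the short Smad motif, was at 7 of the 13, over 5 members with Tnf among them, and in 42.2% of all promoters. The sequences of start sites 2 and 3 of Il1rn overlap and hold the same copy, which was counted at each. GTCTAGAC, the full Smad element, was at 1 of the 13, the second start site of Tnfaip3, and in 0.167% of all. A match describes the letters and is not a measured binding site.

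Of the 10 members, 6 reached TPM 1 in at least 3 libraries and were tested, as were 12158 genes in all: Tnf, Il18, Il1rn, Nfkbia, Tnfaip3 and Nlrp3. By median TPM over the 17 libraries the order was Nfkbia (146.9 TPM), Il1rn (50.2 TPM), Tnf (33.7 TPM), Tnfaip3 (6.31 TPM), Nlrp3 (0.57 TPM) and Il18 (0.08 TPM). The ranges of neighbours in this order overlapped. Nfkbia spanned 27.7 to 303 TPM, Il1rn 0.15 to 585.2 TPM and Tnf 0 to 307 TPM. Tnfaip3 spanned 0 to 101 TPM, Nlrp3 0 to 29.4 TPM and Il18 0 to 30.7 TPM. Nfkbia was above TPM 10 in 17 of 17 libraries, Il1rn in 14, Tnf in 13, Tnfaip3 in 6, Il18 in 6 and Nlrp3 in 4. In the GRCm38 annotation Il1a, Il1b and Il1rn lie on chromosome 2, Il10 on 1, Il18 on 9 and Nlrp3 on 11.

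**Figure D1:**
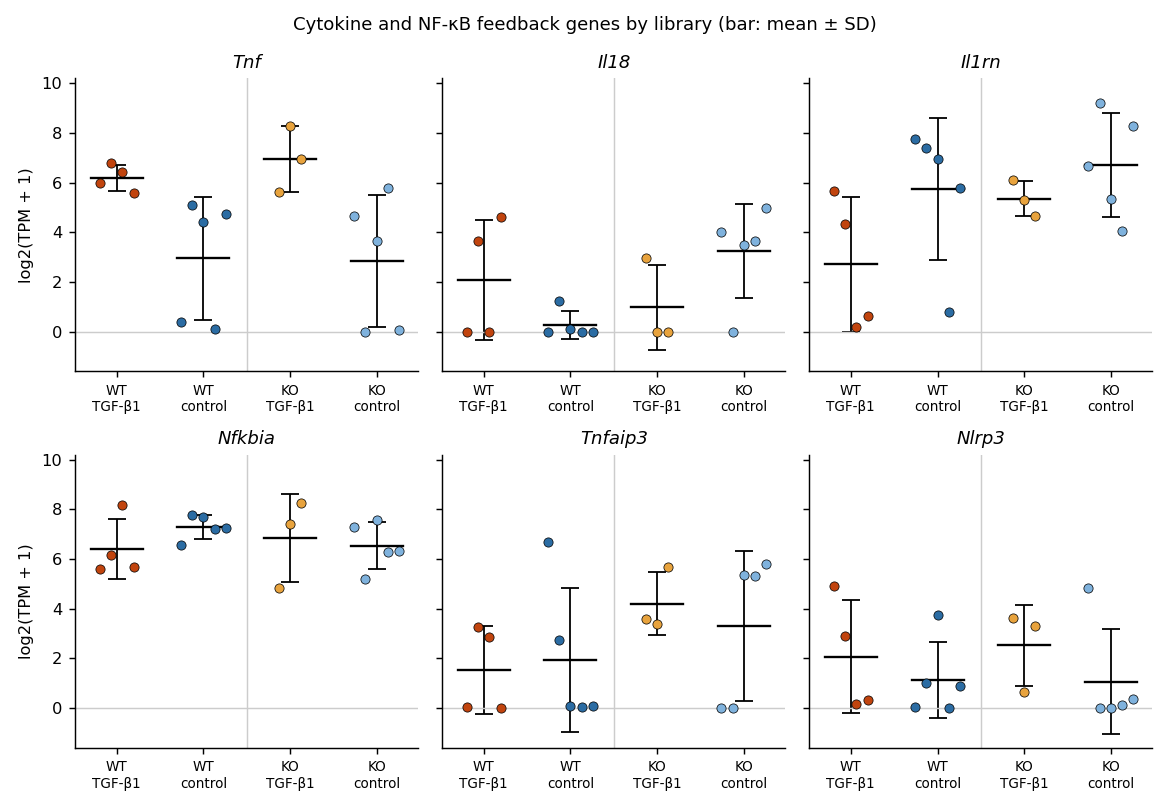
Level of the 6 tested members as log2(TPM + 1), 1 point per library, in wild type (WT) with TGF-β1 (n = 4) and control (n = 5) and in libraries labelled Smad3 knockout (KO) with TGF-β1 (n = 3) and control (n = 5); bars are mean ± SD. All Tnf values with TGF-β1 lie above those of the wild-type controls, and Nfkbia is present in every library.

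Tnf encodes tumour necrosis factor, the cytokine that macrophages release early in inflammation. Its level was 61.6, 109, 85.3 and 47.3 TPM in the 4 wild-type libraries with TGF-β1, against 0.31, 33.7, 20.3, 0.07 and 25.8 TPM in the 5 wild-type controls. Every wild-type TGF-β1 library was above every wild-type control, and the means were 75.9 ± 27.3 TPM with TGF-β1 and 16.0 ± 15.2 TPM in controls (SD). The difference on the log2(TPM + 1) scale, on which the changes of low genes are understated, was 3.24 ± 1.26 (SE). In limma's fit its unadjusted p was 0.0185 and its Benjamini-Hochberg adjusted p over all genes was 0.404, so Tnf was not called. A two-sided exact permutation test of this gene alone gave p = 0.0317, where the smallest possible is 0.00794. Of all tested genes, 1.8% had wild-type TGF-β1 libraries wholly above the controls.

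In the libraries labelled knockout, Tnf was at 47.9, 307 and 124.6 TPM with TGF-β1, against 23.9, 0, 11.7, 53.9 and 0.06 TPM in the controls. The groups overlapped by 1 control library, at 53.9 TPM, which exceeded the lowest TGF-β1 library; 4.89% of tested genes had no overlap in this comparison. The log2 difference was 4.12 ± 1.38, with an unadjusted limma p of 0.00725, an adjusted p of 0.665 and a two-sided exact permutation p of 0.0714, where 0.0179 is the smallest possible. The difference between the genotypes' TGF-β1 effects was 0.87 ± 1.87 on the log2 scale (limma adjusted p = 0.997), an error that leaves room for effects of unequal size. Averaged over both genotypes, a comparison added after the data were seen, the log2 difference of Tnf was 3.68 ± 0.93 (limma adjusted p = 0.0973). That comparison called 0.378% of tested genes and no member. With a pseudocount of 10 in place of 1, the adjusted p of the averaged difference was 0.0273, which is below the threshold, and the difference was 2.28. Over its other alternatives, left-out libraries aside, that adjusted p lay between 0.0673 and 0.446.

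Cell cycle genes differed between the same groups. The mean log2(TPM + 1) of 14 cell cycle genes was 7.69 to 8.37 in wild-type TGF-β1 libraries, against 3.41 to 7.61 in wild-type controls, and 7.64 to 8.24 in the knockout-labelled TGF-β1 libraries, against 4.72 to 7.53 in theirs. In the 3 control libraries with the highest cell cycle means, 7.08 and 7.61 in wild type and 7.53 in the knockout label, Tnf was at 33.7, 25.8 and 23.9 TPM. The lowest TGF-β1 library was at 47.3 TPM. In the other wild-type controls Tnf was at 0.31, 20.3 and 0.07 TPM, with cell cycle means of 4.04, 3.41 and 6.63. In the other knockout-labelled controls Tnf was at 0, 11.7, 53.9 and 0.06 TPM, with cell cycle means of 5.68, 5.62, 5.56 and 4.72. The part of the cell cycle in the Tnf difference was not tested. Csf1r also differed: it averaged 854.5 ± 272.5 TPM with TGF-β1 and 367 ± 188 TPM in controls of wild type, and 842 ± 245 TPM with TGF-β1 and 340 ± 119 TPM in controls of the knockout label. Its log2 difference was 1.32 in each genotype, and in the average of the genotypes Csf1r was called (limma adjusted p = 0.0244); its part in the Tnf difference was not tested either. Libraries with over 10% of moderately expressed genes at 0 numbered 6 of 17. They were wild-type TGF-β1 library 3, wild-type controls 3, 4 and 5, and knockout-labelled TGF-β1 library 2 and control 2. Without them the Tnf difference was 3.36 in wild type (limma adjusted p = 0.563) and 2.75 in the knockout label (limma adjusted p = 1). The wild-type controls left were then only libraries 1 and 2, with Tnf at 0.31 and 33.7 TPM. The knockout-labelled TGF-β1 libraries left were only 1 and 3.

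**Figure D2:**
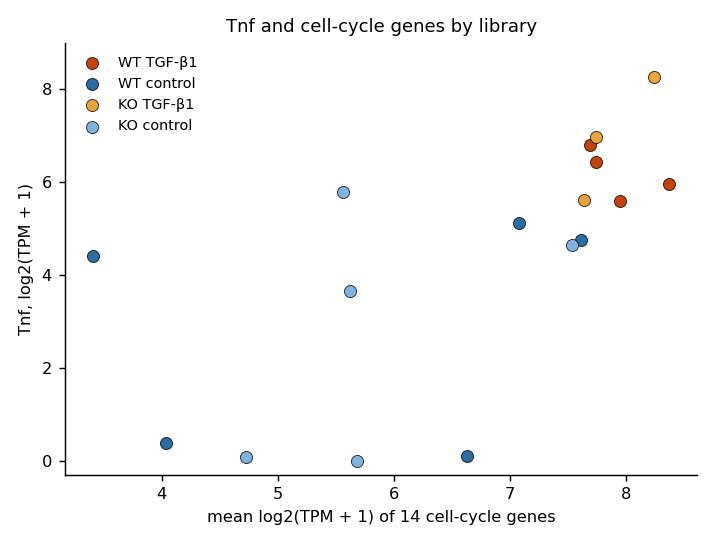
Tnf level as log2(TPM + 1) against the mean log2(TPM + 1) of 14 cell cycle genes, 1 point per library, coloured by group (WT, wild type; KO, labelled Smad3 knockout). The 7 TGF-β1 libraries have cell cycle means of 7.64 or more, and the control libraries have 3.41 to 7.61.

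Il18 encodes the IL-1 family cytokine IL-18. It was at 0, 11.7, 0 and 23.5 TPM in wild-type TGF-β1 libraries, against 0, 1.38, 0.08, 0 and 0 TPM in wild-type controls. With the knockout label it was at 6.8, 0 and 0 TPM with TGF-β1, against 15.0, 0, 10.3, 11.7 and 30.7 TPM in controls. It was thus above TPM 10 in 4 of 5 knockout-labelled controls and in none of the wild-type controls, with overlap at 0. The log2 difference between knockout-labelled and wild-type controls was 2.96 ± 1.06 (unadjusted limma p = 0.0116, adjusted p = 0.699; two-sided exact permutation p = 0.0476). That comparison called 0.148% of genes, none of them a member, and groups without overlap made up 1.06% of genes. The TGF-β1 difference of Il18 was 1.80 ± 1.13 in wild type (exact permutation p = 0.286) and -2.24 ± 1.23 in the knockout label (exact permutation p = 0.179). The difference between them was -4.04 ± 1.67 (limma adjusted p = 0.997). For that difference of effects, the share of genes called was 0, with 569 genes at an unadjusted p under 0.05. Il18 overlaps Bco2 and Tex12 in the annotation, and the SMART-seq2 library protocol does not mark strand, so reads of the overlapping parts cannot be told apart.

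Il1a and Il1b, which encode both forms of IL-1, and Il6, the acute-phase cytokine, were listed at exactly 0 TPM in all 17 libraries. Il10, which encodes the main anti-inflammatory cytokine of macrophages, was also listed at 0 in all 17. No fold change or test exists for these 4 genes. Values of 0 throughout were common: only 19835 of the 37620 genes were above 0 in at least 1 library. Il1a overlaps Gm14023 and Il1b overlaps Il1bos in the annotation.

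Il1rn encodes the antagonist that occupies the IL-1 receptor without signalling, and it was detected in these libraries while both IL-1 genes were listed at 0. In wild type it was at 50.2, 19.2, 0.15 and 0.53 TPM with TGF-β1, against 214.4, 169.6, 124.2, 0.75 and 53.8 TPM in controls. Of the 5 wild-type controls, 4 exceeded every TGF-β1 library and the other lay among the lowest values, so the groups overlapped. The log2 difference was -3.04 ± 1.36 (unadjusted limma p = 0.0375, adjusted p = 0.472; two-sided exact permutation p = 0.151). With the knockout label it was at 67.1, 38.6 and 24.6 TPM with TGF-β1, against 100.6, 585.2, 39.9, 15.6 and 312 TPM in controls. The log2 difference there was -1.35 ± 1.48 (exact permutation p = 0.339), and the difference of effects was 1.68 ± 2.01 (limma adjusted p = 0.997). Without its wild-type TGF-β1 library 3, at 0.15 TPM, the wild-type difference was -2.20, and without wild-type control library 4, at 0.75 TPM, it was -4.27.

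Nfkbia encodes IκBα, which holds NF-κB in the cytoplasm and is itself a target of it. It was at 47.1, 70.5, 287.7 and 49.6 TPM in wild-type TGF-β1 libraries, against 94.0, 216.7, 204.8, 146.9 and 151.0 TPM in wild-type controls. With the knockout label it was at 27.7, 170.8 and 303 TPM with TGF-β1, against 154.8, 35.6, 190.3, 75.9 and 79.2 TPM in controls. The groups overlapped in both genotypes. In wild type 3 of 4 TGF-β1 libraries lay below every control, and the other above every control. The log2 difference was -0.90 ± 0.66 in wild type (exact permutation p = 0.175) and 0.31 ± 0.72 in the knockout label (exact permutation p = 0.768). Genotypes differed by -0.77 ± 0.62 among controls (exact permutation p = 0.143) and by 0.44 ± 0.75 with TGF-β1 (exact permutation p = 0.686), knockout label minus wild type. Nfkbia had the smallest standard errors of the 6 members in each of these comparisons.

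Tnfaip3 encodes A20, the ubiquitin-editing enzyme that ends NF-κB signalling below the TNF receptor. In wild type it was at 0.02, 8.53, 6.31 and 0 TPM with TGF-β1, against 101, 5.69, 0.06, 0.02 and 0.07 TPM in controls. With the knockout label it was at 11.03, 9.31 and 50.0 TPM with TGF-β1, against 0, 0, 39.7, 39.1 and 55.4 TPM in controls. Each group but the knockout-labelled TGF-β1 one held libraries below TPM 0.1 beside libraries above TPM 5. With TGF-β1, all 3 knockout-labelled libraries were above all 4 wild-type libraries, by a log2 difference of 2.67 ± 1.77 (unadjusted limma p = 0.147, adjusted p = 1; two-sided exact permutation p = 0.114, with 0.0286 the smallest possible). Groups did not overlap for 5.49% of genes in that comparison, and 0.156% of genes were called. Among controls the log2 difference was 1.37 ± 1.46, knockout label minus wild type (exact permutation p = 0.524). The TGF-β1 difference was -0.39 ± 1.55 in wild type (exact permutation p = 0.849) and 0.91 ± 1.69 in the knockout label (exact permutation p = 0.679); without wild-type control library 1, at 101 TPM, the first of these was 0.80.

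Nlrp3 encodes the inflammasome sensor. It was at 29.4, 6.38, 0.11 and 0.25 TPM in wild-type TGF-β1 libraries, against 0.04, 1.02, 12.5, 0 and 0.83 TPM in wild-type controls. With the knockout label it was at 11.3, 0.57 and 8.86 TPM with TGF-β1, against 27.3, 0, 0, 0.08 and 0.29 TPM in controls. Each group had a library above TPM 10 and a library below TPM 1, and the groups overlapped. The log2 difference was 0.93 ± 1.20 in wild type (exact permutation p = 0.484) and 1.47 ± 1.31 in the knockout label (exact permutation p = 0.393).

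**Figure D3:**
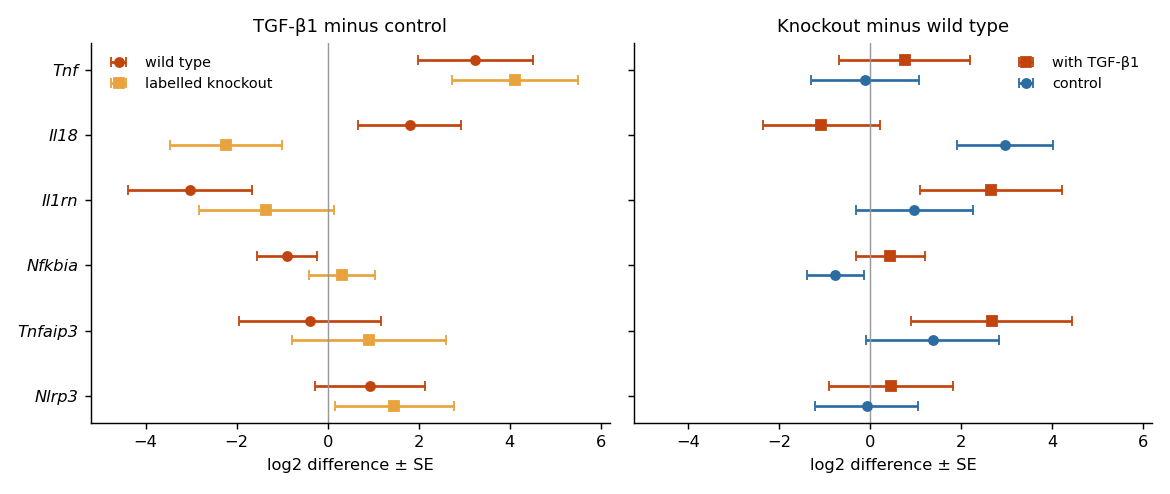
Log2 difference ± SE from limma's fit for the 6 tested members: left, TGF-β1 minus control in wild type (circles) and in libraries labelled knockout (squares); right, knockout label minus wild type with TGF-β1 (squares) and in controls (circles). Tnf is positive in both genotypes (3.24 and 4.12), while Il18 is positive in wild type (1.80) and negative in the knockout label (-2.24); no member had an adjusted p below 0.05.

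Over the members together, 0 of 6 passed an adjusted p of 0.05 in limma's fit for TGF-β1 against control in wild type, where 0.181% of all tested genes were called, and 0 of 6 in the knockout label, where 0.00823% were called. At an unadjusted p under 0.05, Tnf had a positive and Il1rn a negative difference in wild type, 2 of 6 members beside 9.97% of all genes. In the knockout label 1 of 6, Tnf, had a positive one, beside 5.93% of all genes. The median log2 difference of the 6 members was 0.27 in wild type and 0.61 in the knockout label, beside 0.09 and 0.07 over all tested genes. For the knockout label minus wild type it was 0.60 with TGF-β1 and 0.45 in controls, beside 0.06 and 0.11.

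The other genes of the pathway were read from lists by role. None of the tested genes in these lists passed the adjusted threshold for TGF-β1 in either genotype, so the genes named next are given as values. They include the gene with the largest absolute difference of each list in each genotype; the others were chosen after their values were seen. Of 11 receptors of these cytokines 7 were tested, with a median log2 difference of 0.02 in wild type and -0.03 in the knockout label. Il10rb, a subunit of the IL-10 receptor, was at 171 to 402 TPM and Tnfrsf1a, the main TNF receptor, at 32.4 to 219 TPM over all libraries, whereas the signalling IL-1 receptor Il1r1 did not exceed 0.63 TPM and the decoy Il1r2 was listed at 0 throughout. Tnfrsf1b, the second TNF receptor, averaged 13.7 ± 11.1 TPM in wild-type TGF-β1 libraries (n = 4) and 49.2 ± 33.7 TPM in wild-type controls (n = 5), a log2 difference of -2.17 (adjusted p = 0.439). In the knockout label it averaged 18.1 ± 3.84 TPM with TGF-β1 (n = 3) and 46.5 ± 47.4 TPM in controls (n = 5). Il10ra, the ligand-binding subunit of the IL-10 receptor, had positive differences in both genotypes: 2.10 ± 1.35 in wild type (adjusted p = 0.660) and 2.77 ± 1.47 in the knockout label (adjusted p = 0.854). It was at 20.4 to 45.5 TPM in wild-type TGF-β1 libraries, against 0.02 to 62.9 TPM in wild-type controls, and at 11.6 to 25.1 TPM in knockout-labelled TGF-β1 libraries, against 0 to 50.8 TPM in their controls.

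Of the NF-κB subunits, IκB proteins and the IκB kinase complex, 18 of 18 were tested, with medians of 0.23 in wild type and -0.17 in the knockout label. Nfkbid, which encodes a nuclear IκB protein, had positive differences in both: 2.98 ± 1.24 in wild type (adjusted p = 0.439) and 3.13 ± 1.35 in the knockout label (adjusted p = 0.787). It was at 38.1, 68.2, 32.2 and 11.7 TPM in wild-type TGF-β1 libraries, against 15.6, 41.7, 0.74, 0 and 0 TPM in wild-type controls. With the knockout label its values were 27.9, 77.9 and 56.7 TPM with TGF-β1, against 15.4, 0.05, 2.71, 40.1 and 1.5 TPM in controls, with overlap in both genotypes. Nfkb1, the p105 precursor of the p50 subunit, was at 134.7, 42.9, 91.0 and 25.3 TPM in wild-type TGF-β1 libraries, against 20.6, 48.7, 0.35, 0.14 and 0.1 TPM in wild-type controls. Its log2 difference was 3.78 ± 1.25 in wild type (adjusted p = 0.291) and -0.99 ± 1.36 in the knockout label. For Map3k7, which encodes the kinase TAK1 upstream of the complex, these were 3.16 ± 1.28 (adjusted p = 0.425) and -1.06 ± 1.40. The difference of effects was -4.77 ± 1.85 for Nfkb1 and -4.22 ± 1.89 for Map3k7 (limma adjusted p = 0.997 for each). Nfkbiz, a nuclear IκB protein that NF-κB induces, was at 24.2, 66.4 and 58.7 TPM in knockout-labelled TGF-β1 libraries, all above the 0.24, 0.45, 7.87, 9.97 and 7.72 TPM of their controls. That difference was 3.43 ± 1.15 (limma adjusted p = 0.665), beside 0.13 ± 1.06 in wild type. The difference of effects was 3.30 ± 1.56 for Nfkbiz (limma adjusted p = 0.997). Knockout-labelled TGF-β1 and control libraries did not overlap for 4.89% of all tested genes.

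Of the other negative feedback genes 19 of 19 were tested, with medians of 0.70 and -0.07 for wild type and the knockout label. Tnip3, an A20-binding protein gene, was at 9.74, 2.28, 0.01 and 0.01 TPM in wild-type TGF-β1 libraries, all below the wild-type controls at 80.5, 25.8, 36.9, 20.1 and 55.8 TPM. Of all tested genes, 0.987% had wild-type TGF-β1 libraries wholly below the controls. The log2 difference of Tnip3 was -4.02 ± 0.92, with an unadjusted limma p of 0.000312 and an adjusted p of 0.0766. In the knockout label Tnip3 was at 4.0, 33.6 and 34.8 TPM with TGF-β1, against 46.6, 22.7, 11.5, 6.27 and 13.3 TPM in controls, a difference of 0.10 ± 1.01. The difference between these effects was 4.12 ± 1.37 (limma adjusted p = 0.997). Socs3, an inhibitor of cytokine receptor signalling, had a difference of 2.94 ± 1.33 in the knockout label (adjusted p = 0.815) and 0.70 ± 1.22 in wild type. For Socs3 the difference of effects was 2.24 ± 1.80 (limma adjusted p = 0.997). For Otud7b the groups did not overlap in either genotype. Wild-type libraries had 0.03 to 37.2 TPM with TGF-β1 and 0 to 0.01 TPM in controls. Knockout-labelled ones had 0 to 1.74 TPM and 1.84 to 18.2 TPM. Its differences were 1.81 ± 0.93 and -2.30 ± 1.01, and the difference of effects -4.11 ± 1.37 (limma adjusted p = 0.997). Knockout-labelled groups did not overlap for 4.89% of tested genes, and 1.8% lay wholly above the controls in wild type.

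Of 20 other inducible NF-κB target genes 10 were tested and 4 were listed at 0 in every library, with medians of 0.06 in wild type and 0.76 in the knockout label. Ccl4, a chemokine for monocytes and T cells, was at 578.5, 170.4, 123.6 and 86.0 TPM in wild-type TGF-β1 libraries, all above the wild-type controls at 0.26, 15.1, 0.08, 29.7 and 0.08 TPM. Its log2 difference was 5.60 ± 1.18, with a limma adjusted p of 0.0595. Wild-type TGF-β1 libraries lay wholly above the controls for 1.8% of all tested genes. In the knockout label Ccl4 was at 3.43, 236.4 and 164.6 TPM with TGF-β1, against 21.3, 169.5, 95.1, 131.7 and 46.2 TPM in controls, a difference of -0.41 ± 1.29. The difference of effects was -6.01 ± 1.75 (limma adjusted p = 0.997). Sod2 was at 23.2 to 31.2 TPM in knockout-labelled TGF-β1 libraries, all below their controls at 36.2 to 59.8 TPM. That difference was -0.64 ± 0.58 (limma adjusted p = 0.944), and 4.89% of tested genes had no overlap in the same comparison. Cxcl2, a chemokine for neutrophils, had a difference of 5.14 ± 1.76 in the knockout label (adjusted p = 0.683) and -0.35 ± 1.61 in wild type.

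Of the inflammasome and pyroptosis genes 13 of 13 were tested, with medians of 0.86 in wild type and 0.37 in the knockout label. Not all were well detected: Il18bp was listed at 0 in the knockout-labelled controls, and Nlrp1b did not exceed 0.52 TPM in wild-type controls. Pycard, the adaptor ASC, was at 49.3 to 308 TPM in all libraries. In the knockout label it was at 165.6 to 277 TPM with TGF-β1, all above the 49.3 to 163.4 TPM of controls. That difference was 1.00 ± 0.51 (limma adjusted p = 0.854), and 4.89% of tested genes had no overlap there. Casp1, which cuts the precursors of IL-1β and IL-18, was at 2.08 to 113.6 TPM. Nek7, a kinase that binds NLRP3, averaged 44.2 ± 19.7 TPM with TGF-β1 and 15.1 ± 10.6 TPM in controls of wild type, a log2 difference of 1.76 (adjusted p = 0.442). Card9, a signalling adaptor of innate receptors, had a difference of -1.87 ± 1.52 in wild type (adjusted p = 0.748) and 2.83 ± 1.65 in the knockout label (adjusted p = 0.856). For Card9 the difference of effects was 4.70 ± 2.24 (limma adjusted p = 0.997). Aim2, a sensor of cytosolic DNA, had 1.22 ± 1.28 in wild type and 2.12 ± 1.39 in the knockout label (adjusted p = 0.883). Adaptors upstream of NF-κB were also tested in full, 12 of 12, with medians of 0.68 and -0.16 for wild type and the knockout label; Irak2, a kinase below the IL-1 and Toll-like receptors, had a wild-type difference of 1.99 (adjusted p = 0.442), and Birc3, a ubiquitin ligase, had -2.13 in the knockout label (adjusted p = 0.924). A last list held 11 other ligands: those of the IL-1 and IL-6 families, and Tgfb1, which belongs to neither family. Of these 7 were found and 2 tested: Osm, with differences of -1.70 in wild type and 0.24 in the knockout label, and Tgfb1, with -0.06 and 0.73.

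**Figure D4:**
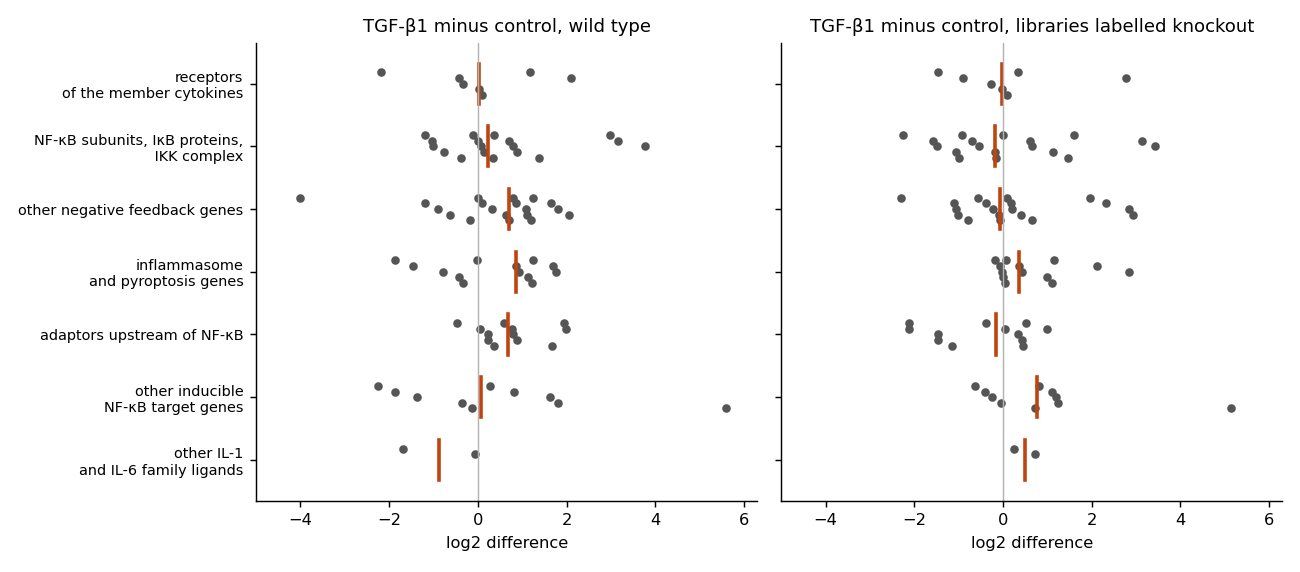
Log2 difference, TGF-β1 minus control, of the tested genes in 7 pathway lists, in wild type (left) and in libraries labelled knockout (right); 1 point per gene, vertical bars are list medians. Most genes lie between -2 and 2; Ccl4 (5.60) in wild type and Cxcl2 (5.14) in the knockout label lie farthest to the right.

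Across the 17 libraries the members did not share 1 pattern. Pearson's r of log2(TPM + 1) between pairs of tested members ran from -0.345 for Tnf and Il1rn to 0.406 for Tnf and Nlrp3, and was 0.142 for Nfkbia and Tnfaip3. For members at TPM 1 or more in at least 9 libraries, the tested genes with the most similar pattern were Ppp1r2-ps4 (r = 0.885), Lrrc45 (0.853) and Arhgef39 (0.845) for Tnf. For Il1rn they were Tmem181a (0.909), Wdr55 (0.822) and Slfn2 (0.816). For Nfkbia they were Naip6 (0.694), Prkar2a (0.693) and Krr1 (0.688), and for Tnfaip3 R3hcc1l (0.79), 1700025G04Rik (0.787) and Enpp1 (0.787). These are descriptions over libraries that share groups and normalisation, picked as the highest of all tested genes with a symbol. Ppp1r2-ps4 is named as a pseudogene and Naip6 has close paralogs, so their reads are uncertain.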

How the data were processed

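Per the labels, RNA was turned into cDNA by SMART-seq2. The authors deposited 1 table of TPM values; per the submitters' processing notes, reads passed FastQC and Trim Galore and expression was estimated with RSEM on mouse build mm9, with versions not given in the sources used here. Depth is unknown, so no counting interval could be given. RSEM divides reads between near-identical transcripts. Symbols, overlaps and gene types came from GENCODE vM21 (32897 of 37620 IDs matched) and promoters from RefSeq GRCm38.p6, a build that is not the submitters' one. The design text speaks of sorting by F4/80 and smooth muscle actin; libraries are not tied to a sort by their labels, so that was not analysed here.

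Testing covered genes with TPM 1 or above in 3 or more libraries, on log2(TPM + 1) with limma 3.58.1 in R 4.3.3 (lmFit, eBayes with a trend), fitted once over the 4 groups, with Benjamini-Hochberg adjustment over all 12158 genes and a threshold of 0.05. Each tested member also had a two-sided exact permutation test (Python 3.11.15). The self-test used simulated data. Members always are named. For each other list the plan allowed up to 4 tested genes with the largest TGF-β1 differences. Genes outside that rule are named as well, and these were chosen after their values were seen. The members and lists were chosen with earlier results of these data known. Same-numbered libraries did not deviate together (22 pairs, r from -0.0761 to 0.0213), so replicate numbers were not used as a block. Alternatives were the pseudocount, filter, scaling, samples in the fit, detected genes as covariate, a replicate block and left-out libraries. The planned protein sequences were not used here.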

Additional observations from a re-analysis of the deposited data

Results flagged for a closer look

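Of 18 groups of 4 or 5 libraries examined for a library far from the rest (groups of 3 were not examined), 4 were flagged. The cut-off flags about 1 in 20 groups of normally distributed values. Groups with most values near 0, as for Nlrp3 and Il18 below, are not of that kind, so the 4 cannot be set against that rate. The number given for each is the gap to the nearest library divided by the group's range, on the log2(TPM + 1) scale. For Nlrp3 it was 0.924 for knockout-labelled control library 1, at 27.3 TPM, and 0.73 for wild-type control library 3, at 12.5 TPM. For Il18 it was 0.911 for wild-type control library 2, at 1.38 TPM, where the other wild-type controls had 0.08 TPM or less. For Il1rn it was 0.716 for wild-type control library 4, at 0.75 TPM, below the other wild-type controls, and without it the wild-type TGF-β1 difference of Il1rn was -4.27 in place of -3.04.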

How the results depend on the processing

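No member was called in the 5 planned comparisons under any setting run, left-out libraries included (0 of 6 each time). In the average of the genotypes 1 member, Tnf, was called with a pseudocount of 10 and 0 with every other setting. With the replicate number as a block, 0 members were called in each comparison, 11 genes were called for TGF-β1 in wild type and 0 in the knockout label, and the Tnf differences were 3.12 and 3.91. Over 36 member values and 756 alternatives, 48 changed sign, and 22 values never did. Tnf kept its sign for TGF-β1 against control: 2.53 to 3.78 in wild type and 3.41 to 4.85 in the knockout label with 1 library left out, and 1.92 to 4.12 and 2.64 to 5.35 otherwise. Its unadjusted p in wild type was above 0.05 without control library 1 (0.0542), without control library 4 (0.0553) and without the 6 libraries with many genes at 0 (0.0549), and in the knockout label it was above 0.05 without those 6 (0.0919).

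Sign changes with 1 library left out gave these ranges: Tnfaip3 -0.96 to 0.80 and Nlrp3 -0.020 to 1.59 for TGF-β1 in wild type; Nfkbia -0.40 to 1.31 in the knockout label; Nlrp3 -0.12 to 1.49 for the difference of effects. Between genotypes they were Tnf -0.86 to 0.59, Il1rn -0.26 to 1.63 and Nlrp3 -1.02 to 0.57 in controls, and Nfkbia -0.26 to 1.44 and Nlrp3 -0.19 to 1.41 with TGF-β1. In the average they were Il18 -0.72 to 0.12, Nfkbia -0.65 to 0.20 and Tnfaip3 -0.15 to 0.86. Without the 6 libraries with over 10% of moderate genes at 0, the reversed values were Nfkbia -0.32 (knockout label), Tnf -0.61 and Nlrp3 -0.038 (difference of effects), Tnf 0.79, Il1rn -1.49, Tnfaip3 -0.59 and Nlrp3 0.79 (genotypes in controls) and Tnfaip3 -1.55 (average). That setting left only libraries 1 and 2 of the wild-type controls and only 1 and 3 of the knockout-labelled TGF-β1 group. With a pseudocount of 10 they were Nlrp3 -0.094 (difference of effects) and 0.10 (genotypes in controls) and Tnfaip3 -0.18 (average). In the average, Tnfaip3 was -0.020 with quantile normalisation and -0.13 with detected genes as covariate, and Il18 0.13 under the block. The cause was not tested. The main fit had 3 to 5 libraries a group and standard errors of 0.62 to 1.77 between any pair of groups. A p that misses the threshold therefore does not show that members did not differ.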
